A study of Oryzias latipes with 48 samples.

Results

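At clock hour 2, in the night, brain RNA of medaka (Oryzias latipes, a small freshwater teleost that breeds in long days) was compared across the year: 8 of the 48 libraries of the series, chosen by their labelled clock hour and by nothing measured. The tested libraries are 2 from the summer solstice and 2 from the autumn equinox, and they are set against 2 from the spring equinox and 2 from the winter solstice. All fish lived outdoors in daylight and temperature as nature gave them. Each library was made from a tissue block with pituitary, hypothalamus and ventral telencephalon together. The other 40 libraries, from hours 6, 10, 14, 18 and 22 of the same seasons with 2 per season and hour, serve here to show which season differences at hour 2 were absent or reversed at the rest of the day. The sources used here do not state strain, age, sex, fish per library or the year of each season, so season cannot be told apart from collection date or batch. They also do not say whether the 2 libraries of a group are separate fish, and p-values therefore reflect library spread alone, which may be technical.

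The molecular clock of vertebrate cells is a feedback loop. CLOCK, its relative NPAS2 and the ARNT-like (BMAL) proteins switch on the genes of their own repressors, the period and cryptochrome proteins, together with the NR1D (REV-ERB) receptors, which in turn repress BMAL genes at sites where ROR receptors activate them. The PAR bZIP factors HLF, TEF and DBP and their antagonist NFIL3 carry the rhythm to output genes. Immediate early genes of the Fos, Jun, Egr and Nr4a families are transcribed within minutes of neuronal activity, and the pituitary secretes the gonadotropins, growth hormone, prolactin and thyrotropin that couple season to reproduction and growth.

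Levels are in FPKM, sequenced fragments scaled by transcript length and by library size, as the authors deposited them. Differences are on the log2(FPKM + 1) scale, with spring and winter subtracted from summer and autumn, which understates the change of low genes, and fold changes are taken from that scale. A gene is called where limma's adjusted p (Benjamini-Hochberg over 16622 tested genes, those with a mean of at least 1 FPKM over the 48 libraries) was under 0.05. The spread was estimated over all 24 groups, which gives 24 residual degrees of freedom. The depth behind each value is unknown, as the table holds no counts. The 8 libraries held 23573 to 23814 genes above 0 and FPKM sums of 330726 to 356051, and the 2 libraries of a season correlated at 0.981 to 0.987 across tested genes.

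On the first principal component of the 8 libraries (53.2% of the variance), the summer libraries lay at 30.4 and 28.2 and the autumn libraries at 26.1 and 25.1, against -24.4 and -26.2 for spring and -29.0 and -30.1 for winter. On the second (15.7%), spring library 1 stood apart at 29.4, where the others ranged from -20.1 to 12.3. Without that library 8392 genes were called between the seasons at hour 2 (9021 with it), and 798 had a season difference unlike that of the other hours (751 with it). Other counts over all genes that change by more than 1.5 times without a library are given with and without it. Of the markers of tissue that the block should lack, 2 of 19 retina and pineal genes, 3 of 27 skeletal muscle genes and 7 of 29 genes of exocrine pancreas and liver reached the level tested. The summed FPKM of the pancreas and liver list was 2970.0 to 4436 in summer and 3927 to 4184 in autumn, against 4184 to 5227 in spring and 3292 to 3968 in winter, nearly all of it transferrin and apolipoprotein A-I. Neuronal markers (20 of 27 tested called higher and 0 lower by limma, also 0 at an unadjusted p under 0.05, and 17 and 1 with median-ratio scaling) and myelin markers (10 of 14 higher, 1 lower) moved with season at this hour, against 31.5% of all genes called higher and 22.8% called lower. Summed FPKM of the neuronal list was 2903 to 3318 in summer and 2831 to 2899 in autumn, against 2357 to 2500 in spring and 2272 to 2345 in winter. That of the myelin list was 1984 to 2084 in summer and 2349 to 2539 in autumn, against 1309 to 1542 in spring and 1211 to 1377 in winter. That of the red blood cell list was 1643 to 1987 in summer and 1211 to 1468 in autumn, against 352 to 523 in spring and 777 to 902 in winter. In bulk tissue, fewer cells of a type and less RNA per cell cannot be told apart. None of the 14 myelin and 9 red blood cell markers had a season difference at hour 2 that limma called different from the other hours. Of the 27 neuronal markers 1 did, against 4.52% of all tested genes. At an unadjusted p under 0.05 it was 3 myelin, 1 red blood cell and 4 neuronal markers. Lists of this size would hold few calls at the share of all genes. The part of tissue composition in the results below was not tested.

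Across all tested genes, 9021 (54.3%) were called between the seasons at hour 2, 5236 of them higher in summer and autumn (31.5%) and 3785 lower (22.8%). The median difference was 0.05. The excess of higher calls depended on scaling: 58.0% of calls were higher as deposited, 50.7% with median-ratio scaling (4553 higher and 4430 lower) and 52.4% with quantile normalization (4666 and 4243). In 5949 genes (35.8%) the 4 summer and autumn libraries did not overlap the 4 spring and winter ones. Most differences were small, and 174 called genes were at least 2-fold higher and 257 at least 2-fold lower. The count was similar at the other hours taken singly. It was 8644 at hour 6 (52.0%; 31.4% higher and 20.6% lower), 8830 at hour 10 (53.1%; 31.0% and 22.1%), 9546 at hour 14 (57.4%; 35.2% and 22.2%), 9523 at hour 18 (57.3%; 37.1% and 20.2%) and 9246 at hour 22 (55.6%; 33.5% and 22.1%).

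Most of these differences ran through the day. Of the 9021 genes called at hour 2, 8331 (92.4%) were called in the same direction in the mean of the 5 other hours, which pools 40 libraries and so calls more genes (12892, 77.6%; 46.6% higher and 31.0% lower), and 4546 (50.4%) were called in the same direction at every one of the 5. At least 1 opposite call occurred in 457 genes. Opposite calls were few at the neighbouring hours, with 26 genes at hour 6 and 26 at hour 22. They were more frequent at the hours further away, with 171 genes at hour 10, 235 at hour 14 and 218 at hour 18. A call at hour 2 and at no other hour was made for 335 genes.

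A test of the difference itself, the season difference at hour 2 minus its mean over the 5 other hours, called 751 genes (4.52%), 231 more positive at hour 2 (1.39%) and 520 more negative (3.13%). With each library scaled by its median ratio, the split was 315 and 454, which moves the more positive share to 41.0% of calls, against 30.8% as deposited. The total was 447 without summer library 1, 496 without winter library 1 and 497 without spring library 2. Set against single hours, hour 2 differed in 103 genes from hour 6 (0.62%; 0.174% more positive and 0.445% more negative), in 1101 from hour 10 (6.62%; 2.29% and 4.34%), in 1842 from hour 14 (11.1%; 4.49% and 6.59%), in 1507 from hour 18 (9.07%; 3.45% and 5.61%) and in 118 from hour 22 (0.71%; 0.307% and 0.403%). The count against hour 6 was 65 without autumn library 1 and 167 without summer library 2, that against hour 18 was 942 without spring library 2 and 965 without summer library 1, and that against hour 22 was 77 without spring library 2. With median-ratio scaling the more positive share was 52.1% at hour 14 (40.6% as deposited), 55.4% at hour 18 (38.1% as deposited) and 54.2% at hour 22 (43.2% as deposited, and 57.1% without spring library 2). With quantile normalization it was 53.5% at hour 18.

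**Figure D1:**
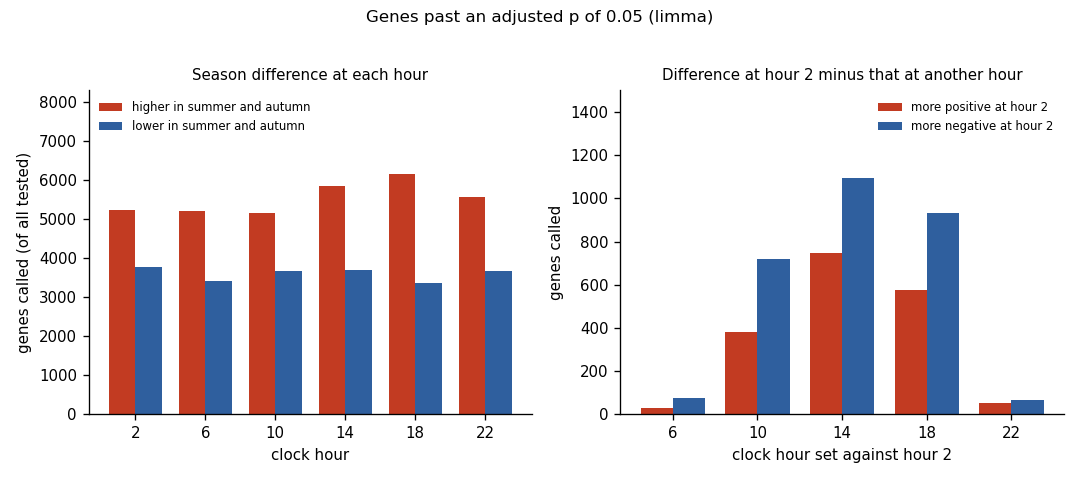
Left, genes called between summer and autumn and spring and winter at each clock hour, higher (red) and lower (blue); right, genes whose season difference at hour 2 was called different from that at another hour, more positive (red) or more negative (blue) at hour 2. The season counts are alike at all 6 hours, while the difference between hours is called in 103 and 118 genes at the neighbouring hours 6 and 22 and in 1101 to 1842 genes at hours 10, 14 and 18.

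Of the 751 genes, 554 were also called at hour 2 itself. Their 5-hour mean difference was reversed, that is called with the opposite sign, in 107 (0.644% of tested genes; 33 higher and 74 lower at hour 2), absent, that is not called, in 129 (0.776%; 34 higher and 95 lower), smaller but of the same sign in 230 (1.38%; 72 higher and 158 lower), and larger in 88 (0.529%; 49 higher and 39 lower). The other 197 (1.19%) were not called at hour 2, and their 5-hour mean was. Without summer library 1 the absent genes numbered 73, the smaller 148, the larger 45 and those not called at hour 2 106. Without spring library 2 the absent genes numbered 80, the larger 47 and those not called 120, and without winter library 1 they numbered 84, 49 and 127. Larger genes were also 51 without autumn library 1 and 57 without winter library 2, and genes not called at hour 2 were 130 without autumn library 1 and 300 without summer library 2. The reversed genes numbered 75 to 141 over the 8 such fits. Membership changed with scaling more than the counts did. With median-ratio scaling 103 genes were reversed, 66 of them among the 107, and 127 were absent, 65 of them among the 129. With quantile normalization 102 were reversed, 73 of them among the 107, and 108 were absent, 64 of them among the 129. Among the 107 reversed genes, 57 were called the opposite way at 2 of the 5 other hours, 32 at 3, 11 at 1, 6 at 4 and 1 at all 5. Among the 129 absent genes, 56 were called the opposite way at 1 of these hours, 28 at 2, 3 at 3 and 42 at none. Absent thus refers to the 5-hour mean, in which differences of opposite sign can cancel, and not to each hour.

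The 8 largest reversals in named genes with at least 5 FPKM were nearly all of the clock. Both genes annotated as nr1d1, the REV-ERB alpha receptor that represses BMAL genes, were higher at hour 2 in summer and autumn. In the mean of the 5 other hours they were lower, though not at each of those hours. LOC101173939 stood at 48.8 and 41.3 FPKM in summer and 53.4 and 51.7 FPKM in autumn, against 6.42 and 7.27 FPKM in spring and 7.69 and 9.43 FPKM in winter. All 4 summer and autumn libraries lay above all 4 others, with no overlap. The difference was 2.52 ± 0.10 (SE; 5.74-fold; limma adjusted p = 6.7e-18) and had the opposite sign, -0.16, over the 5 other hours, so that the difference between hours was 2.68 ± 0.11 (adjusted p = 9.3e-17). By clock hour it was 0.88 at hour 6, -1.14 at hour 10, -1.59 at hour 14, -0.72 at hour 18 and 1.75 at hour 22.

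The daily course of LOC101173939 was wide in summer and autumn. In summer its 2 libraries fell to 2.75 and 3.85 FPKM at hour 14 and in autumn to 1.93 and 1.91 FPKM, below the spring (10.7 and 7.49 FPKM) and winter (10.4 and 10.1 FPKM) libraries of that hour. In spring all 12 libraries lay between 6.42 and 10.7 FPKM, and in winter between 6.99 and 12.5 FPKM. Its summer and autumn libraries were therefore above those of spring and winter at hour 2 and below them at hour 14.

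The second nr1d1 gene, LOC101174341, had 93.7 and 93.1 FPKM in summer and 126 and 122 FPKM in autumn, against 42.5 and 39.1 FPKM in spring and 38.8 and 38.3 FPKM in winter. The groups did not overlap, and autumn was the highest season. The difference was 1.42 ± 0.07 (SE; 2.67-fold; adjusted p = 6.3e-16), against -0.36 over the 5 other hours, and it was most negative at hours 10 and 14 (-1.72 at each). The 2 genes annotated as NR1D2, its REV-ERB beta relative, were not called at hour 2: LOC101163230 differed by -0.17 (adjusted p = 0.29) and LOC101156434 by 0.04 (adjusted p = 0.87).

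LOC101163688, annotated as hepatic leukemia factor (HLF), a PAR bZIP activator of clock output genes, reached 121 and 104 FPKM in summer and 114 and 119 FPKM in autumn, against 39.4 and 35.0 FPKM in spring and 27.7 and 28.7 FPKM in winter. No library of the first 4 came within 2-fold of any of the last 4. The difference was 1.79 ± 0.08 (SE; 3.45-fold; adjusted p = 6.2e-17), and -0.21 over the other hours. It was still 1.11 at hour 6, was -1.70 at hour 14 and returned to 0.77 at hour 22. In summer the gene stood at 10.6 and 8.51 FPKM at hour 14, and in autumn at 10.2 and 8.71 FPKM, below spring (37.0 and 34.5 FPKM) and winter (30.0 and 30.8 FPKM).

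**Figure D2:**
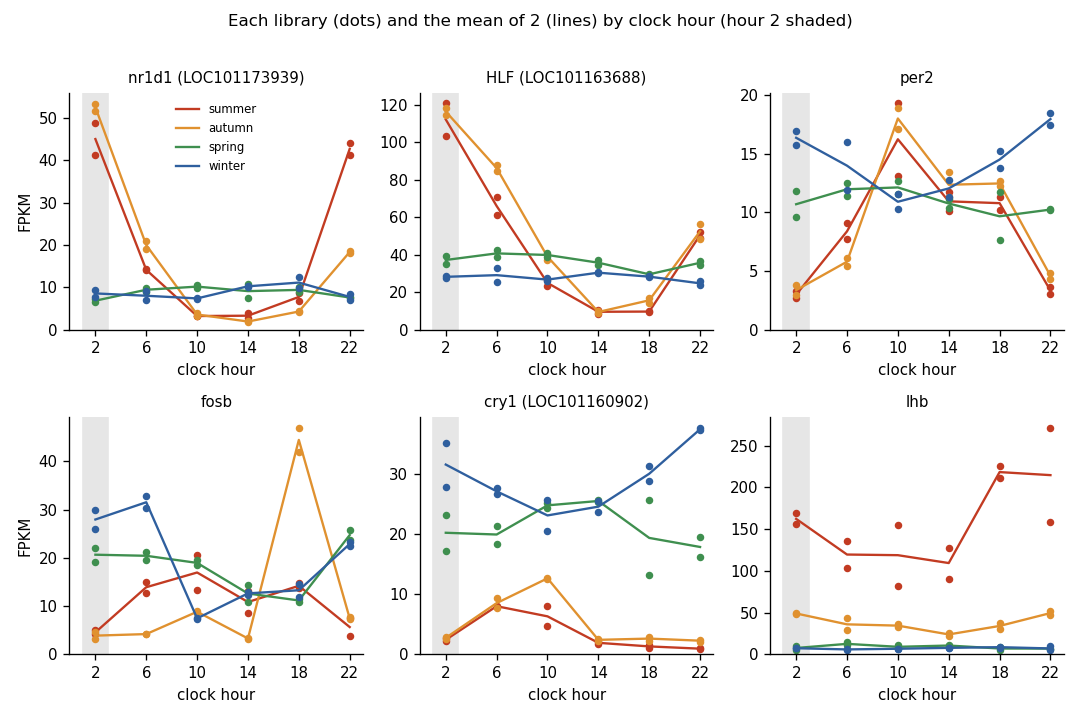
FPKM by clock hour in each of the 48 libraries (dots) and the mean of the 2 libraries of a season (lines), for 6 genes, with hour 2 shaded. The lines of nr1d1, HLF, per2 and fosb cross during the day, those of cry1 (LOC101160902) and lhb keep summer and autumn on one side of spring and winter at all 6 hours.

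bhlhe41 (DEC2), which represses E-box genes, had 145 and 130.0 FPKM in summer and 108 and 107 FPKM in autumn, against 55.1 and 54.0 FPKM in spring and 46.3 and 48.9 FPKM in winter. The groups did not overlap. Its difference of 1.24 ± 0.06 (SE; 2.36-fold; adjusted p = 4.3e-16) was larger at hour 6 (1.54), and it was -0.90 at hour 14 and -1.30 at hour 18. per1, a period repressor, differed less at hour 2, with 24.3 and 26.2 FPKM in summer and 28.3 and 27.8 FPKM in autumn against 19.4 and 18.7 FPKM in spring and 21.7 and 20.4 FPKM in winter (0.40 ± 0.10, SE; adjusted p = 0.0011). Its 5-hour mean was -0.68, with -1.68 at hour 14 and -1.62 at hour 18.

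The remaining reversed genes of the 8 were smaller at hour 2. LOC101170972, annotated as the CLOCK-interacting pacemaker CIPC, which represses CLOCK-BMAL, differed by 0.52 ± 0.07 (SE; adjusted p = 3.4e-07) at hour 2 and by -0.54 over the other hours. LOC101157319, annotated as the circadian-associated repressor CIART, differed by 0.59 ± 0.08 (SE; adjusted p = 2.1e-07) at hour 2 and by -0.45 over the other hours. LOC101157884, annotated as the cAMP-responsive element modulator CREM, went the other way. It had 6.27 and 5.45 FPKM in summer and 4.53 and 4.11 FPKM in autumn, against 7.20 and 8.75 FPKM in spring and 8.73 and 8.53 FPKM in winter, a difference of -0.62 ± 0.11 (SE; adjusted p = 1.9e-05), and its 5-hour mean was 0.19.

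Of the 20 clock repressor genes tested, 9 were called higher at hour 2 and 7 lower, with a median of 0.06. Of all tested genes 31.5% were called higher at that hour and 22.8% lower. Over the 5 other hours 4 were called higher and 16 lower (46.6% and 31.0% of all tested genes were), with a median of -0.40. The difference between hours was called in 15 of the 20, 9 more positive and 6 more negative, against 4.52% of all tested genes. Groups did not overlap at hour 2 in 15 of the 20, against 35.8% of all tested genes.

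The 7 repressors that were lower at hour 2 in summer and autumn were 4 cryptochromes, both per2 genes and LOC101172421, annotated as CIART. Cryptochromes are the partners of the period proteins in repression. LOC101160902, 1 of 4 genes annotated as cry1, had 2.16 and 2.65 FPKM in summer and 2.94 and 2.52 FPKM in autumn, against 17.2 and 23.2 FPKM in spring and 27.9 and 35.2 FPKM in winter. It was the gene with the second lowest difference among those named by the rule, -2.87 ± 0.14 (SE; 7.32-fold lower; adjusted p = 1.3e-15), and unlike nr1d1 it was lower at all 6 hours. Its difference between hours was not called (-0.41, adjusted p = 0.13). LOC101174986, also annotated as cry1, had 0.76 and 0.79 FPKM in summer and 1.01 and 0.80 FPKM in autumn, against 7.5 and 7.33 FPKM in spring and 5.87 and 6.37 FPKM in winter (-2.07 ± 0.09, SE; adjusted p = 3.4e-17). It was 0.46 at hour 10, which makes the difference between hours -1.26 (adjusted p = 1.5e-10). LOC101167667 fell by 1.19 at hour 2 (adjusted p = 3.1e-11) and by 0.44 over the other hours, and LOC101173389, annotated as cry2, fell by 0.55 (adjusted p = 3.1e-09) and by 0.66 over the other hours. The fourth cry1 gene, LOC101164536, was the exception, with 0.24 at hour 2 (adjusted p = 0.028, 0.088 with median-ratio scaling and 0.15 without spring library 2) and 1.08 over the other hours.

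per2, a period gene that light induces in fish, had 2.66 and 3.31 FPKM in summer and 3.8 and 2.94 FPKM in autumn, against 9.57 and 11.8 FPKM in spring and 16.9 and 15.8 FPKM in winter. The groups did not overlap, and winter was the highest season. Its difference of -1.77 ± 0.11 (SE; 3.42-fold lower; adjusted p = 3.5e-13) was -0.80 at hour 6 and -1.57 at hour 22, but 0.52 at hour 10, 0.03 at hour 14 and -0.02 at hour 18. The second per2 gene, LOC101161338, fell by 2.26 at hour 2 (adjusted p = 3.4e-17) and by 1.12 over the other hours, while the per3 gene LOC101159817 was not called (0.08, adjusted p = 0.39). LOC101172421 had its smallest difference at hour 2, -0.70 (adjusted p = 1.7e-08), against -3.69 at hour 14.

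**Figure D3:**
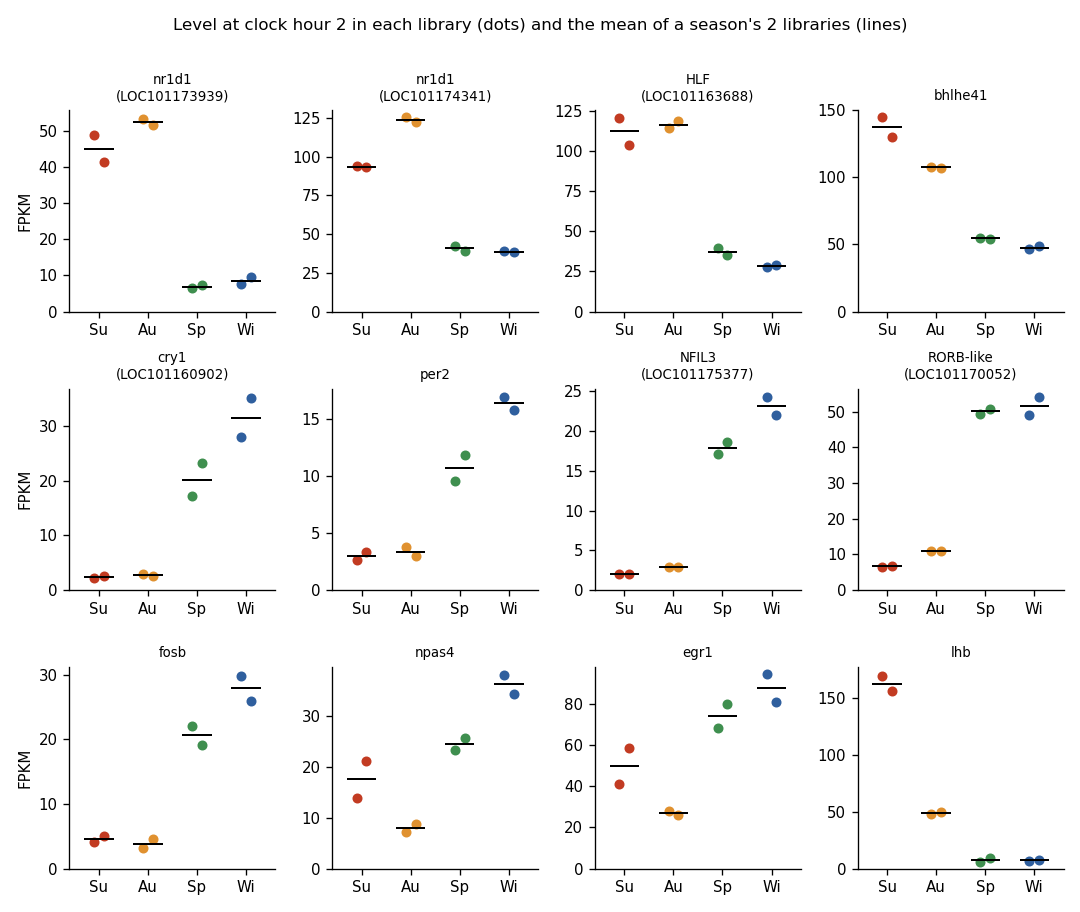
FPKM at clock hour 2 in each library (dots) and the mean of the 2 libraries of a season (lines), for summer (Su), autumn (Au), spring (Sp) and winter (Wi), in 12 genes. In all 12 the 4 summer and autumn libraries do not overlap the 4 spring and winter libraries; nr1d1, HLF, bhlhe41 and lhb are higher in summer and autumn and the other genes lower.

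Genes of the activator list were lower in summer and autumn at this hour. The names searched for it also held the casein kinase genes csnk1d and csnk1e. Of 13 tested, 0 were called higher and 9 lower by limma (22.8% of all genes were called lower), with a median of -0.39. All 13 differences were negative, the highest being -0.01 (rora), so 0 were higher at an unadjusted p under 0.05 as well. The list was lower over the 5 other hours too, with 2 called higher and 10 lower and a median of -0.29 (46.6% and 31.0% of all genes were). With quantile normalization these counts were 0 and 10. The difference between hours was called in 7 of 13, all more negative at hour 2, against 4.52% of all tested genes. LOC101170052, annotated as ROR-beta-like, an orphan receptor of the family that activates BMAL genes, had 6.55 and 6.70 FPKM in summer and 10.9 and 10.9 FPKM in autumn, against 49.5 and 50.7 FPKM in spring and 49.0 and 54.1 FPKM in winter. Summer was lowest, autumn next, and spring and winter were alike. Its difference was -2.44 ± 0.04 (SE; 5.43-fold lower; adjusted p = 1.7e-25). It was -2.05 at hour 6, -0.95 at hour 10, -0.07 at hour 14, -0.28 at hour 18 and -1.79 at hour 22.

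LOC101172430, annotated as NPAS2, a partner of BMAL, had 3.26 and 3.29 FPKM in summer and 4.43 and 4.43 FPKM in autumn, against 11.6 and 12 FPKM in spring and 11.7 and 11 FPKM in winter (-1.38 ± 0.05, SE; adjusted p = 5.3e-19). The groups did not overlap, as for the 2 ARNT-like genes that follow. LOC101159313, annotated as ARNT-like 1 (BMAL1), differed by -0.98 ± 0.08 (SE; adjusted p = 1.8e-11) at hour 2 and by -1.53 at hour 6, and was positive at hours 14 (0.20) and 18 (0.67). LOC101174183, annotated as ARNT-like 2 (BMAL2), differed by -0.70 ± 0.07 (SE; adjusted p = 1.1e-09) at hour 2 and by 0.70 at hour 18. The CLOCK gene LOC101165450 differed by -0.36 (adjusted p = 8.4e-07) at hour 2. Its 5-hour mean of 0.07 was called as deposited (adjusted p = 0.0039), but not with quantile normalization (0.04, adjusted p = 0.17) or median-ratio scaling (-0.0002, adjusted p = 1). The gene with the symbol clock was not called (-0.11, adjusted p = 0.20).

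All 8 PAR bZIP and NFIL3 genes tested had a difference between hours that was called, against 4.52% of all tested genes. Of these, 4 were more positive and 4 more negative at hour 2 (4 and 3 with quantile normalization). At hour 2 itself 3 were called higher and 3 lower (31.5% and 22.8% of all tested genes were). LOC101175377, annotated as NFIL3, a repressor that competes with HLF and TEF for the same sites, had 1.99 and 2.03 FPKM in summer and 2.94 and 2.85 FPKM in autumn, against 17.1 and 18.6 FPKM in spring and 24.2 and 22.0 FPKM in winter. Its difference was -2.64 ± 0.06 (SE; 6.22-fold lower; adjusted p = 2.9e-23), and it was -2.54 at hour 6, 0.10 at hour 14 and 0.37 at hour 18. A second NFIL3 gene, LOC101161892, fell by 1.43 (adjusted p = 1.9e-12). Of 3 genes annotated as thyrotroph embryonic factor (TEF), an activator like HLF, 2 were called higher, and LOC101164258 was not called (-0.08, adjusted p = 0.42). LOC101159928 rose by 1.3 ± 0.08 (SE; adjusted p = 1.6e-13) and LOC101172818 by 0.58 ± 0.10 (SE; adjusted p = 3.2e-05), and LOC101172818 had a 5-hour mean of -0.20. hlf itself, a second gene of that name, was not called at hour 2 (0.11, adjusted p = 0.15) and was 0.39 over the other hours. Its difference between hours (-0.28, adjusted p = 0.020) lost the call in 4 of the 8 fits that left out a library, with adjusted p of 0.080 without summer library 1, 0.087 without winter library 1, 0.10 without spring library 2 and 0.11 without autumn library 1.

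**Figure D4:**
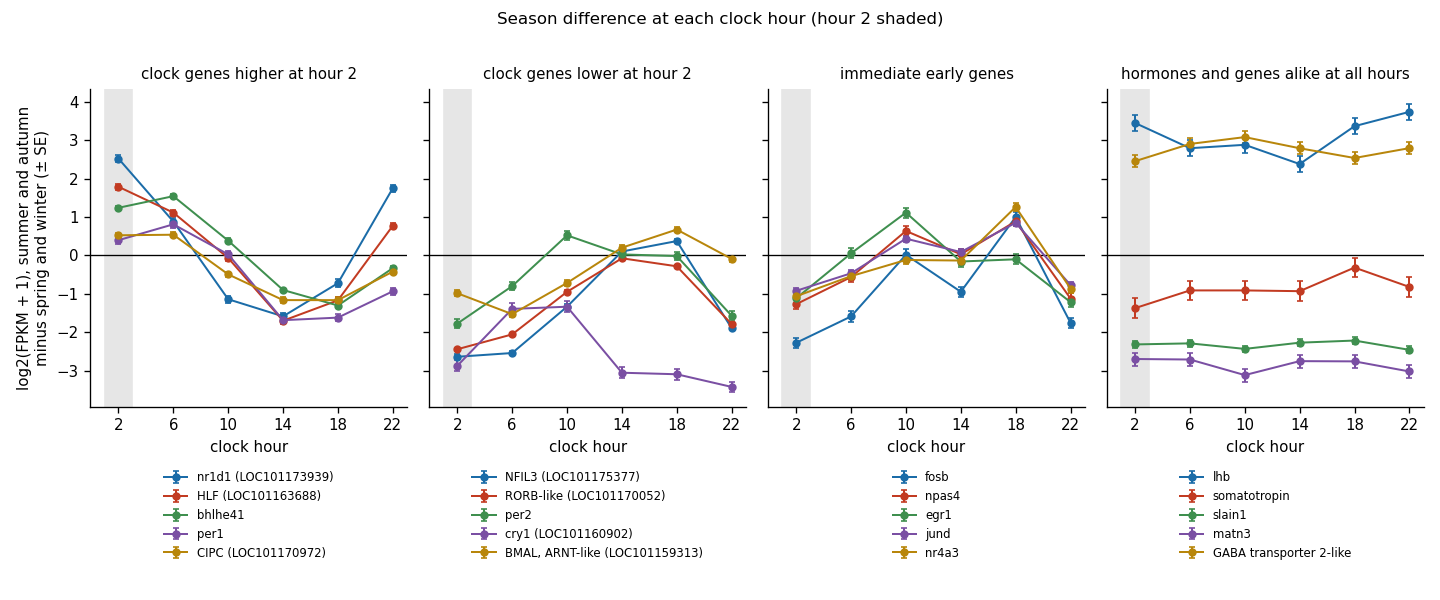
Season difference (summer and autumn less spring and winter) on the log2(FPKM + 1) scale (± SE) at each clock hour, with hour 2 shaded, for 20 genes in 4 panels. The clock genes that are higher at hour 2 (2.52 for nr1d1) lie below 0 at hour 14. Those that are lower at hour 2 lie near or above 0 at hours 14 and 18, except cry1. The 5 immediate early genes are lowest at hours 2 and 22. For slain1 and matn3 the difference at hour 2 is about that in the mean of the 5 other hours, and equality at each hour was not tested.

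The daily range of the clock genes differed with season in these libraries. The median fold between the highest and the lowest of the 6 hourly means was 4.53 in summer and 4.05 in autumn for the 20 repressors, against 1.3 in spring and 1.29 in winter. For the 13 genes of the activator list it was 2.32 in summer and 2.05 in autumn, against 1.22 in spring and 1.18 in winter. For the 8 PAR bZIP and NFIL3 genes it was 2.93 in summer and 3.13 in autumn, against 1.49 in spring and 1.23 in winter. Over all tested genes the same median was 1.23 in summer, 1.26 in autumn, 1.23 in spring and 1.21 in winter. These are descriptions with no test.

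Immediate early genes were another group that set hour 2 apart from the mean of the 5 other hours. Of 27 tested, 17 were called lower at hour 2 in summer and autumn (22.8% of all genes were) and 3 higher (31.5% were). The median was -0.66, against 0.05 over all genes. Over the 5 other hours 7 were called lower and 10 higher (31.0% and 46.6% of all genes were), with a median of 0.03. With median-ratio scaling these were 11 lower and 8 higher, with a median of -0.04. The difference between hours was called in 19 of 27, 18 more negative and 1 more positive, where 3.13% and 1.39% of all genes were. Of the 17, 9 were absent in the mean of the 5 other hours, 6 were smaller and 1 was reversed. Calls in this list were not counted against single hours. The 5 immediate early genes drawn by clock hour were also low at the hour sampled just before hour 2. Whether the list as a whole sets hour 2 apart from either neighbouring hour was not tested.

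fosb, an AP-1 subunit that accumulates after sustained activity, had 4.13 and 4.97 FPKM in summer and 3.21 and 4.52 FPKM in autumn, against 22.1 and 19.2 FPKM in spring and 29.9 and 26.0 FPKM in winter. The 4 libraries of summer and autumn were alike and lay far below the others. The difference was -2.27 ± 0.14 (SE; 4.83-fold lower; adjusted p = 1.2e-13), with -0.65 over the other hours and 1.0 at hour 18, where the 2 autumn libraries reached 42.0 and 46.9 FPKM. npas4, an activity-dependent transcription factor of neurons, had 13.9 and 21.2 FPKM in summer and 7.27 and 8.74 FPKM in autumn, against 23.4 and 25.7 FPKM in spring and 38.1 and 34.4 FPKM in winter. Its groups did not overlap, though summer library 2 came close to spring. The difference of -1.27 ± 0.13 (SE; 2.41-fold lower; adjusted p = 5.2e-09) was -0.03 over the other hours (adjusted p = 0.69), and the difference between hours was -1.24 ± 0.14 (SE; adjusted p = 1.0e-06).

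egr1, a zinc finger factor induced by activity, had 41.2 and 58.7 FPKM in summer and 28.1 and 26.3 FPKM in autumn, against 68.2 and 80.2 FPKM in spring and 94.7 and 81.2 FPKM in winter, with no overlap (-1.12 ± 0.13, SE; adjusted p = 5.3e-08). Autumn was the lowest season and winter the highest. The same gene differed by 1.11 at hour 10 and by -1.22 at hour 22. jund, fosl2 and nr4a3 had the same course: they fell by 0.92, 0.75 and 1.06 at hour 2, and their 5-hour means of 0.03, -0.00 and -0.08 were not called. c-fos, which the list's search by name did not hold, had 15.2 and 26.6 FPKM in summer and 4.20 and 5.72 FPKM in autumn, against 18.6 and 24.0 FPKM in spring and 34.1 and 28.3 FPKM in winter. Its groups overlapped, since summer stood at the level of spring, and the difference was -1.25 ± 0.23 (SE; adjusted p = 4.8e-05). LOC101164744, annotated as egr2b, and LOC101160576, a second gene annotated as egr1, fell by 1.10 (adjusted p = 4.5e-06) and 1.38 (adjusted p = 1.0e-06) and had no called 5-hour mean.

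The members called higher at hour 2 were jun, LOC101174822 and an ier5-like gene, while jund, also a Jun gene, was lower. jun, an AP-1 subunit, had 5.51 and 6.41 FPKM in summer and 5.87 and 5.94 FPKM in autumn, against 3.04 and 4.09 FPKM in spring and 5.37 and 4.91 FPKM in winter (0.39 ± 0.08, SE; adjusted p = 0.00013). LOC101174822, annotated as transcription factor AP-1, rose by 0.27 (adjusted p = 0.017), and LOC101160564, annotated as immediate early response gene 5-like, rose by 0.83 (adjusted p = 3.2e-08). Summer exceeded autumn in 9 of 27 immediate early genes and was below it in 0 by limma, also 0 at an unadjusted p under 0.05, where 1.9% of all genes were called higher and 2.92% lower. The median daily range of the list was 1.68-fold in summer, 2.60-fold in autumn, 1.68-fold in spring and 2.07-fold in winter. Hour 2 gave the lowest of the 6 hourly means in 13 of the 27 genes in summer and 8 in autumn, against 0 in spring and 2 in winter. Over all tested genes it gave the lowest in 21.3% in summer and 18.5% in autumn, against 13.1% in spring and 15.0% in winter. Among microglia and macrophage genes it gave the lowest in 14 of 20 in summer and 9 in autumn. In the list of cartilage, bone and meninges this held for 5 of 9 and 2, and in the neuronal list for 3 of 27 in both seasons. The low at hour 2 was therefore not particular to immediate early genes.

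Other genes named by rank had roles outside the clock. LOC101168770, annotated as the WD40 splicing protein SMU1, had 24.2 and 22.8 FPKM in summer and 19.7 and 21.9 FPKM in autumn, against 2.85 and 3.13 FPKM in spring and 3.62 and 3.74 FPKM in winter (2.42 ± 0.09, SE; 5.35-fold; adjusted p = 1.4e-18). It was 2.17 at hour 6 and -0.51 at hour 14, so that its 5-hour mean was 0.63. lonrf3, a LON and RING domain protein, was lower at hour 2 in summer and autumn. It had 0.95 and 0.67 FPKM in summer and 0.81 and 0.64 FPKM in autumn. Spring had 4.81 and 5.70 FPKM and winter 6.50 and 8.20 FPKM. The difference was -2.03 ± 0.09 (SE, limma adjusted p = 1.5e-16) at hour 2 and 0.87 at hour 18. LOC101171754, annotated as the related LONRF1, fell by 1.12 (adjusted p = 6.1e-13) with a 5-hour mean of -0.04, and cabp5, a calcium sensor of neurons, fell by 1.48 (adjusted p = 2.0e-07) with a 5-hour mean of -0.16 (adjusted p = 0.088).

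LOC101168635, annotated as the co-chaperone DNAJB5, had 52.4 and 74.8 FPKM in summer and 26.5 and 34.6 FPKM in autumn, against 129 and 171 FPKM in spring and 230 and 199 FPKM in winter. Autumn was lowest and winter highest. The difference of LOC101168635 was -2.01 ± 0.18 (SE; adjusted p = 4.5e-10), -2.26 at hour 22 and 0.74 at hour 10. cic, a transcriptional repressor, had 130.4 and 86.2 FPKM in summer and 74.3 and 76.8 FPKM in autumn, against 42.5 and 42.6 FPKM in spring and 34.4 and 55.4 FPKM in winter. Its difference between hours (1.05, adjusted p = 0.026) lost the call in 6 of the 8 fits that left out a library, with an adjusted p of 0.13 without summer library 1 or winter library 1, 0.051 without spring library 1, 0.069 without spring library 2, 0.061 without autumn library 1 and 0.062 without autumn library 2. mrpl55 of the mitochondrial ribosome (0 and 1.06 FPKM in summer and 2.47 and 0 FPKM in autumn, against 1.94 and 4.70 FPKM in spring and 10.46 and 8.91 FPKM in winter) had overlapping groups and a difference between hours of -1.39 (adjusted p = 0.023). That call was lost without spring library 2 (adjusted p = 0.13), summer library 1 (0.14), autumn library 2 (0.15) or winter library 1 (0.077).

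Stress-related genes held further differences. LOC111947723, annotated as heat shock protein 70, a chaperone induced by heat and other stress, had 1.13 and 1.68 FPKM in summer and 1.41 and 1.16 FPKM in autumn, against 0.81 and 2.05 FPKM in spring and 14.0 and 17.1 FPKM in winter. Only the 2 winter libraries were high, and spring did not differ from summer beyond the spread of libraries (summer minus spring 0.02, adjusted p = 0.95). Spring minus winter was -2.81 (adjusted p = 2.6e-08). Of 18 tested genes of the cold and heat list, 5 were called higher and 8 lower at hour 2 (31.5% and 22.8% of all tested genes were), with a median of -0.20, and the difference between hours was called in 5, all more negative (4.52% of all tested genes were called). LOC101162537, annotated as Sgk1, a kinase induced by glucocorticoids and osmotic stress, had 20.4 and 19.5 FPKM in summer and 20.2 and 19.3 FPKM in autumn, against 48.8 and 53.2 FPKM in spring and 58.0 and 58.1 FPKM in winter (-1.41 ± 0.05, SE; adjusted p = 5.3e-19). It was -1.20 at hours 6 and 22 and -0.05 at hour 18. Of the 15 glucocorticoid-responsive genes, 3 were called higher and 6 lower at hour 2 (1 and 6 with quantile normalization; 31.5% and 22.8% of all tested genes were), and 2 differed between hours (4.52% of all tested genes did).

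Of 14 tested genes of light reception and DNA repair, 4 differed between hours, against 4.52% of all tested genes. ddb2, which recognises ultraviolet damage in DNA, had 1.96 and 2.59 FPKM in summer and 1.65 and 1.94 FPKM in autumn, against 5.40 and 4.28 FPKM in spring and 4.61 and 5.16 FPKM in winter. It fell by 0.95 (adjusted p = 6.0e-07) at hour 2, was not called over the other hours (-0.04, adjusted p = 0.57) and was 0.67 at hour 14. LOC101157094, annotated as melanopsin-A-like, a light-sensing opsin, had 2.09 and 2.05 FPKM in summer and 1.84 and 2.49 FPKM in autumn, against 1.0 and 0.98 FPKM in spring and 1.45 and 1.17 FPKM in winter. It rose by 0.54 (adjusted p = 1.4e-06), with a 5-hour mean of -0.05.

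Genes of the pituitary hormone and reproductive lists gave no difference between hours that was called, against 4.52% of all tested genes. At that share, lists of 11 and 19 genes would hold few such calls in any case. Of 11 pituitary hormone genes, 6 were called higher and 3 lower at hour 2 (31.5% and 22.8% of all tested genes were), with a median of 0.51. The difference between hours was called by limma in 0 of 11 (1 at an unadjusted p under 0.05), and in 0 of 19 genes of the reproductive list (4 at an unadjusted p under 0.05). lhb, the beta subunit of luteinizing hormone, had the highest season difference of the named genes at hour 2, with 169 and 156 FPKM in summer and 48.1 and 49.7 FPKM in autumn, against 5.55 and 9.5 FPKM in spring and 7.05 and 7.47 FPKM in winter. Summer was highest and autumn lay between it and the other 2 seasons. The difference was 3.45 ± 0.21 (SE; 10.9-fold; adjusted p = 2.0e-13), and 3.03 over the other hours. LOC101171460, annotated as somatotropin (growth hormone), was lower, with 1141 and 953 FPKM in summer and 1135 and 2177 FPKM in autumn, against 2918 and 3800 FPKM in spring and 3155 and 3448 FPKM in winter (-1.37 ± 0.26, SE; adjusted p = 4.9e-05). LOC101172582, annotated as prolactin-1, rose by 0.84 (adjusted p = 0.00067), and LOC100049402, a somatolactin precursor, rose by 0.94 (adjusted p = 0.0035).

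In the hypothalamic lists, npb_105354556, the neuropeptide B gene with the larger difference, had 396 and 286 FPKM in summer and 102 and 92.1 FPKM in autumn, against 70.6 and 68.5 FPKM in spring and 52.1 and 43.4 FPKM in winter (1.63 ± 0.13, SE; adjusted p = 3.3e-11). cyp19b, brain aromatase, which makes estrogen, had 289 and 336 FPKM in summer and 102 and 108 FPKM in autumn, against 153 and 168 FPKM in spring and 92.0 and 76.9 FPKM in winter. Its groups overlapped, because spring exceeded autumn. LOC101160582, annotated as peptide YY-like, an appetite peptide, rose by 1.83 (adjusted p = 4.1e-07), and crh, corticotropin releasing hormone, by 0.71 (adjusted p = 1.2e-06). LOC101161984, annotated as pro-MCH-like, a precursor of melanin-concentrating hormone, differed by -0.92 (adjusted p = 0.00032) at hour 2 and by -0.15 over the other hours. The 2 spring libraries carried it, with 152 and 167 FPKM at hour 2, against 65.0 and 75.4 FPKM in summer, 55.0 and 35.4 FPKM in autumn and 84.7 and 58.3 FPKM in winter. Its difference between hours (-0.77, adjusted p = 0.039) had an adjusted p of 0.057 without spring library 1, 0.11 without spring library 2, 0.13 without summer library 1, 0.16 without autumn library 2 and 0.17 without winter library 1.

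Some of the genes with the lowest differences at hour 2 differed by about the same amount in the mean of the 5 other hours. matn3, a cartilage matrix protein, had 1.03 and 2.05 FPKM in summer and 2.13 and 1.62 FPKM in autumn, against 14.4 and 14.2 FPKM in spring and 20.1 and 17 FPKM in winter (-2.70 ± 0.17, SE; adjusted p = 2.6e-13), with a 5-hour mean of -2.87. slain1, a microtubule plus-end protein, had 9.10 and 9.29 FPKM in summer and 8.35 and 8.5 FPKM in autumn, against 44.6 and 41.3 FPKM in spring and 53.0 and 53.4 FPKM in winter (-2.32 ± 0.09, SE; adjusted p = 5.2e-18), with a 5-hour mean of -2.33. Also among the lowest at hour 2, LOC101165453, annotated as the cytokine signalling inhibitor SOCS1, fell by 2.34 (adjusted p = 1.3e-10). At that hour LOC101173759, annotated as the protease meprin A alpha, fell by 2.69 (adjusted p = 1.1e-10) and LOC111947380, annotated as histone H2B, by 2.81 (adjusted p = 2.3e-14).

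Among genes higher in summer and autumn at hour 2, the tubulin genes LOC101160296, LOC101168810 and LOC101157969 rose by 2.73, 2.27 and 1.90 (adjusted p = 4.2e-12, 6.4e-14 and 4.7e-13). LOC101161687, annotated as GABA transporter 2-like, rose by 2.45 (adjusted p = 1.6e-13), gb_101171201, annotated as hemoglobin alpha-1-like, by 2.13 (adjusted p = 3.7e-09), LOC110017567, annotated as interferon alpha-inducible protein 27-like, by 1.93 (adjusted p = 2.2e-06) and LOC101175140, annotated as asialoglycoprotein receptor 1-like, by 1.89 (adjusted p = 8.0e-06). None of these 7 had a called difference between hours (4.52% of all tested genes did), which does not show equal differences at every hour. Tubulin, histone and hemoglobin copies may share reads, so values of single copies are uncertain. kcnj8, a potassium channel subunit of pericytes, was listed at 0 in both summer libraries and at 1.5 and 0.68 FPKM in autumn, against 6.93 and 12.1 FPKM in spring and 16.7 and 11.6 FPKM in winter. It was called lower (adjusted p = 3.5e-10) at hour 2, and no fold is given against a group at 0.

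**Figure D5:**
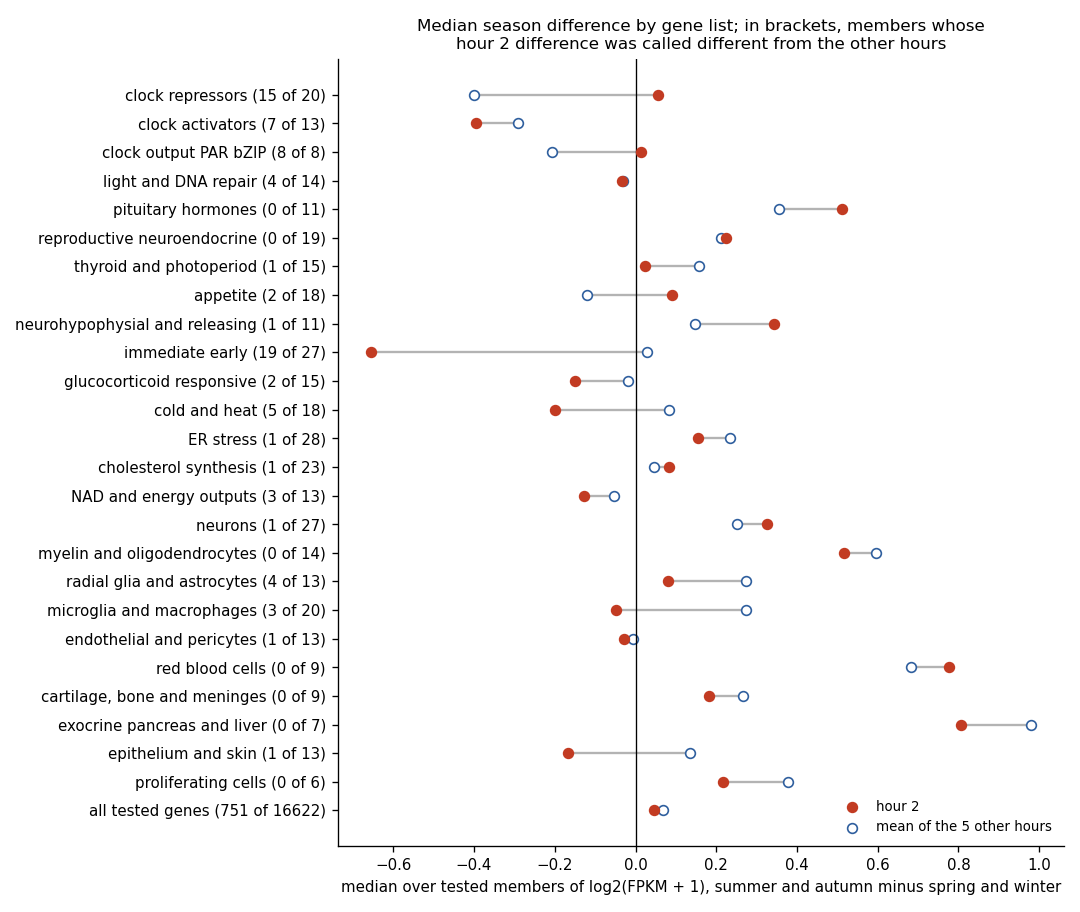
Median season difference (summer and autumn less spring and winter) over the tested members of each gene list at hour 2 (red) and in the mean of the 5 other hours (open blue), on the log2(FPKM + 1) scale, with the number of members whose hour 2 difference was called different from the other hours in brackets. The widest gap between the 2 medians belongs to the immediate early list (-0.66 at hour 2 and 0.03 over the other hours as deposited), followed by the clock repressors (0.06 and -0.40), while all tested genes lie at 0.05 and 0.07.

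Between single seasons at hour 2, with 2 libraries against 2, summer differed from winter in 7588 genes (45.7%; 25.1% higher and 20.5% lower in summer), summer from spring in 6893 (41.5%; 23.9% and 17.5%), autumn from winter in 6942 (41.8%; 24.6% and 17.2%) and autumn from spring in 6518 (39.2%; 24.5% and 14.7%). These pairs share libraries, so their counts are not independent. Their splits also depended on scaling. In the autumn and spring pair 62.6% of calls were higher in autumn as deposited, 50.2% with median-ratio scaling and 51.3% with quantile normalization. With median-ratio scaling the share higher was 49.1% for summer against spring (57.7% as deposited), 50.7% for autumn against winter (58.9% as deposited) and 50.5% for summer against winter (55.0% as deposited). Within the pairs on each side of the comparison, summer differed from autumn in 801 genes (4.82%) and spring from winter in 1721 (10.4%; 4.84% higher and 5.52% lower in spring).

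Both of the last counts rested on few libraries and on the shared estimate of spread. With the hour 2 libraries fitted alone, 23 genes were called between summer and autumn and 13 between spring and winter, and with array weights 207 were called between summer and autumn. The spring and winter split was 46.7% higher in spring as deposited and 52.4% with median-ratio scaling. The summer and autumn count was 285 to 530 when any 1 of its 4 libraries was left out (315 without summer library 1, 530 without summer library 2, 285 without autumn library 1, 327 without autumn library 2). The spring and winter count was 329 without spring library 1, the library that stood apart, 397 without winter library 1 and 764 without winter library 2. Unadjusted p-values under 0.05 were found for 3078 genes between summer and autumn and 4611 between spring and winter.

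The genes that set summer apart from autumn at hour 2 included hormone genes. fshb, which encodes the beta chain of the follicle stimulating gonadotropin, had 186 and 219.5 FPKM in summer against 36.7 and 43.0 FPKM in autumn (2.31 ± 0.33, SE; adjusted p = 9.6e-05), with 72.1 to 81.4 FPKM in the 4 spring and winter libraries, so that summer and autumn lay on either side of spring and winter. gnrh1, the releasing hormone of gonadotropins, had 4.16 and 7.25 FPKM in summer against 1.54 and 0.30 FPKM in autumn (1.84 ± 0.36, SE; adjusted p = 0.0030, 0.052 without summer library 2 and 0.086 without autumn library 2). f13a1, a coagulation factor subunit, had 18.0 and 15.4 FPKM in summer against 0.28 and 1.28 FPKM in autumn (3.37 ± 0.37, SE; adjusted p = 2.2e-06), and 0.51 to 1.43 FPKM in the 4 spring and winter libraries. LOC105354380, annotated as the thyrotropin beta subunit, was lower in summer, with 1.18 and 0.34 FPKM against 5.43 and 6.80 FPKM in autumn (-2.05 ± 0.29, SE; adjusted p = 8.6e-05).

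2 more genes fell in summer relative to autumn. dgat2, an enzyme of triglyceride synthesis, had 0.56 and 0.92 FPKM in summer against 7.51 and 2.65 FPKM in autumn (-1.69, adjusted p = 0.0097, but 0.21 without autumn library 1 and 0.088 without summer library 1). LOC101172815, annotated as the mechanosensitive channel PIEZO2, had 0.99 and 2.07 FPKM in summer against 4.27 and 10.2 FPKM in autumn (-1.63, adjusted p = 0.040, but 0.35 without autumn library 2, 0.26 without summer library 1 and 0.058 without summer library 2).

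Spring and winter differed at hour 2 in LOC101172475, annotated as the kinase PIM2, with 7.03 and 9.21 FPKM in spring against 2.51 and 1.68 FPKM in winter (1.56 ± 0.20, SE; adjusted p = 1.5e-05). LOC101171658, annotated as thyrotropin beta-like, had 52.0 and 51.5 FPKM in spring against 20.7 and 19.7 FPKM in winter (1.31, adjusted p = 0.019, 0.13 without spring library 1, 0.10 without winter library 1 0.085 without winter library 2 and 0.05 without spring library 2). LOC101155030, annotated as an embryonic hemoglobin alpha gene, had 2.37 and 2.26 FPKM in spring against 27.5 and 13.1 FPKM in winter (-2.60, adjusted p = 0.0040, 0.093 without winter library 1). LOC100533500, a CART appetite peptide, had 1.4 and 0.91 FPKM in spring against 7.02 and 8.84 FPKM in winter (-2.05, adjusted p = 0.0096, 0.056 without spring library 1, 0.054 without winter library 1 and 0.067 without winter library 2). ER chaperone and stress genes were called lower in spring than in winter in 14 of 28 and higher in 0 by limma, also 0 at an unadjusted p under 0.05, where 5.52% of all genes were called lower, but lower in 6 of 28 without spring library 1.

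In the season pairs that cross the comparison, LOC101167707, annotated as the intermediate filament protein ON3, was called between summer (47.5 and 18.3 FPKM) and winter (6.61 and 1.43 FPKM; 2.83, adjusted p = 0.024), a call lost without summer library 1 (0.18) or winter library 2 (0.21). LOC101173833, annotated as fetuin-B, a plasma protein of the liver, had 12.8 and 21.0 FPKM in autumn against 1.70 and 0.61 FPKM in spring (3.06 ± 0.43, SE; adjusted p = 2.5e-06). The U2 spliceosomal RNA genes LOC111948527 and LOC111948528 hold identical values in every library. Both were listed at 0 in the 2 autumn libraries and in 1 summer library, against 8.69 and 14.5 FPKM in spring.

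In a last group the season difference was not called at hour 2 and was called over the other hours. dec1a, a repressor related to bhlhe41, had 20.7 and 32.3 FPKM in summer and 27.8 and 27.2 FPKM in autumn, against 16.97 and 23.5 FPKM in spring and 26.6 and 26.6 FPKM in winter. Its groups overlapped at hour 2 (0.20, adjusted p = 0.23), and its 5-hour mean was -0.72, with -1.22 at hour 18. LOC110017476, annotated as arginine/serine-rich protein 1, differed by -0.13 (adjusted p = 0.52) at hour 2 and by 1.55 at hour 14. LOC101162450, annotated as NOTCH2, differed by 0.11 (adjusted p = 0.39) at hour 2 and by 0.80 over the other hours, and cmbl, a hydrolase, by -0.16 (adjusted p = 0.31) and 0.57. LOC101170091, annotated as the iron-sulfur subunit of succinate dehydrogenase, differed by 0.43 (adjusted p = 0.082) at hour 2 and by 1.23 over the other hours. Its difference between hours (-0.79, adjusted p = 0.041) had an adjusted p of 0.075 to 0.20 in the 5 fits that lost the call when a library was left out.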

How the data were processed

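The authors deposited 1 table of FPKM values for 26167 genes in 48 libraries of poly-A selected, strand-specific, paired-end RNA-seq, and FPKM was used as deposited. Per the submitters' processing notes, the tools were Bowtie2 2.2.5 and RSEM 1.2.12. Build and annotation: not given in the sources used here, so no coordinates are printed. Of the genes, 25080 matched a RefSeq names table, which served for product names only. Values at 0 make up 9.23%.

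Genes with a mean of at least 1 FPKM over 48 libraries (16622) were tested on log2(FPKM + 1) with limma 3.58.1 (R 4.3.3), an intensity trend, 1 mean per season and clock hour, and two-sided Benjamini-Hochberg adjusted p under 0.05. Contrasts were the season difference at hour 2, at each other hour, in the mean of the other 5, the difference between these, and season pairs at hour 2. The fit was tested on simulated data. Groups came from the labelled season and clock hour.

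Genes named are members of 27 lists, or the 10 highest and 10 lowest at hour 2, the 8 largest differences between hours in each of the reversed, absent and smaller classes, the 5 largest not called at hour 2, and the 3 highest and lowest in each pair, with a name, 5 FPKM in the higher group and, at hour 2 and in pairs, no overlap. Members and lists were chosen with earlier results of these data known. Alternatives were another pseudocount, no filter, a filter on hour 2, median-ratio and quantile scaling, no trend, array weights, hour 2 libraries alone, a replicate block, leaving out each hour 2 library and leaving out 3 spring libraries. Depth is unknown, since only FPKM was analysed.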

Additional observations from a re-analysis of the deposited data

Results flagged for a closer look

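The season difference at hour 2 was tested against the mean of the same difference at the 5 other hours, and it differed in 751 genes. Values below are that difference between hours on the log2(FPKM + 1) scale, for the genes with the largest ones. In reversed genes it was 2.68 in LOC101173939 and 1.78 in LOC101174341 (both nr1d1), 2.00 in LOC101163688 (HLF), 1.36 in bhlhe41, 1.08 in per1, 1.06 in LOC101170972 (CIPC), 1.04 in LOC101157319 (CIART) and -0.81 in LOC101157884 (CREM).

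In genes whose 5-hour mean was not called it was -1.32 in cabp5, -1.28 in c-fos, -1.24 in npas4, -1.19 in LOC101164744 (egr2b), -1.19 in LOC101160576 (egr1), -1.08 in LOC101171754 (LONRF1), -1.05 in egr1 and 1.05 in cic.

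In genes with a smaller difference of the same sign elsewhere it was 1.79 in LOC101168770 (SMU1), -1.78 in lonrf3, -1.62 in fosb, -1.58 in LOC101175377 (NFIL3), -1.41 in LOC101170052 (ROR-beta-like), -1.41 in LOC101168635 (DNAJB5), -1.41 in per2 and -1.39 in mrpl55.

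In genes not called at hour 2 it was 0.92 in dec1a, -0.84 in LOC110017476 (arginine/serine-rich protein 1), -0.79 in LOC101170091 (succinate dehydrogenase subunit), -0.72 in cmbl and -0.69 in LOC101162450 (NOTCH2). With 2 libraries per season and hour, the gap of 1 library to the rest of its own group was not tested. No explanation was tested.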

How the results depend on the processing

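Depth is unknown, 2 libraries per group limit each season pair, and season cannot be told apart from date or batch. The season count at hour 2 was 8179 to 8451 when a library was left out, and that in the mean of the other hours 12877 to 12929. With array weights the difference between hours was called in 499 genes, the absent class in 78, the larger class in 48, those not called at hour 2 in 123, and summer against autumn in 207. Fitting the hour 2 libraries alone called 4236 genes between autumn and spring, 23 between summer and autumn and 13 between spring and winter. Without 3 spring libraries, spring and winter differed in 382. Over the fits without 1 library, counts ran from 5818 to 7665 (summer and winter), 5514 to 6904 (summer and spring), 5295 to 7049 (autumn and winter), 4761 to 6604 (autumn and spring), 285 to 814 (summer and autumn), 329 to 1966 (spring and winter) and 447 to 1015 (between hours). Against single hours they ran from 65 to 167 (hour 6), 809 to 1130 (10), 1469 to 1967 (14), 942 to 2098 (18) and 77 to 155 (22). By class they ran from 75 to 141 (reversed), 73 to 169 (absent), 148 to 304 (smaller), 45 to 101 (larger) and 106 to 300 (not called at hour 2). With median-ratio scaling the 5-hour mean split evenly, 6423 higher and 6414 lower, against 7744 and 5148. Matched by title number, deviations of the hour 2 libraries from their group means correlated between seasons at -0.16 to 0.29. The highest value was between spring and summer. Without a reference value these correlations cannot settle whether title numbers pair libraries. With title numbers as a replicate block, 8990 genes were called at hour 2 and 715 between hours. Of 385 results for single genes at hour 2, between hours and in season pairs, 280 held their direction and call under every alternative run for them. The others lost the call under at least 1, and 0 changed sign. The fit of the hour 2 libraries alone was run for 292 of the 385, since it holds no other hour. The 5-hour means are not among the 385. That of the CLOCK gene LOC101165450 changed sign with median-ratio scaling (-0.0002, against 0.07 as deposited). The cause was not tested.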

Other observations

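Further gene lists were counted at hour 2, beside 31.5% of all tested genes called higher, 22.8% called lower and 4.52% called different between hours. Several of these lists lay near those shares. Of 28 chaperone and stress genes of the endoplasmic reticulum, 13 were called higher in summer and autumn and 3 lower (31.5% and 22.8% of all tested genes were, and 11 and 1 of these genes without spring library 1), with a median difference of 0.15, and 1 differed between hours. Of 11 neurohypophysial and releasing hormone genes, 6 were called higher and 1 lower (median 0.34). With median-ratio scaling or quantile normalization these were 4 and 1, and without spring library 1 the median was 0.19. Of 18 appetite genes, 6 were higher and 1 lower (median 0.09), and 5 and 2 with quantile normalization. Of 15 thyroid and photoperiod genes, 4 were higher and 3 lower (median 0.02). LOC101173872, annotated as a melatonin receptor type 1A-like gene, which senses the night hormone melatonin, had 1.92 and 2.48 FPKM in summer and 2.05 and 2.39 FPKM in autumn, against 0.70 and 0.59 FPKM in spring and 0.99 and 0.87 FPKM in winter. The groups did not overlap (0.85, limma adjusted p = 7.6e-09). Of 23 cholesterol synthesis genes, 7 were higher and 5 lower (5 and 6 with median-ratio scaling), and of 13 genes of NAD and energy metabolism, 1 was higher and 6 were lower.

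Among cell type markers, 2 of 20 microglia and macrophage genes were called higher at hour 2 and 3 lower (median -0.05; 0 and 3 with median-ratio scaling, 1 and 1 without spring library 1), where 31.5% and 22.8% of all tested genes were. Over the other hours 12 were higher and 3 lower (46.6% and 31.0% of all tested genes were). The test of the difference between hours called 3 of the 20 as deposited and 0 with quantile normalization. Of 13 radial glia and astrocyte genes, 6 were higher and 4 lower, and of 13 endothelial and pericyte genes, 3 were higher and 4 lower. Of 9 red blood cell genes, 6 were higher and 2 lower, of 9 genes of cartilage, bone and meninges 4 and 3, of 7 genes of pancreas and liver 4 and 3, of 13 epithelial genes 4 and 1 (with a median of -0.17, opposite in sign to most of these calls), and of 6 genes of dividing cells 3 and 0 (0 lower at an unadjusted p under 0.05 too). mpz, a myelin protein, had 221 and 256 FPKM in summer and 271 and 236 FPKM in autumn, against 103 and 84.2 FPKM in spring and 78.6 and 80.6 FPKM in winter (1.5, limma adjusted p = 4.4e-12). Its groups did not overlap.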
